A study of Mus musculus with 3 samples.

Results

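The genes described here act in mitosis and at the kinetochore. They are 44 genes, chosen by what their products do, with earlier results of these data known, and matched by symbol. All 44 were among the 17931 genes of the count table. The values come from single-cell RNA sequencing of the corneal epithelium of healthy C57BL/6J mice, separated enzymatically from the cornea and dissociated with trypsin, with a droplet kit that counts transcripts at their 3′ ends by unique molecular identifiers (UMIs). The 3 libraries form a single group without treatment or genetic change. Library 1 pooled 4 corneas (2 males, 20 weeks old), library 2 pooled 4 corneas (2 females, 11 weeks old) and library 3 pooled 7 corneas (7 males, 10 weeks old), so age, sex and number of mice cannot be told apart between libraries. The libraries hold 9488, 11273 and 17350 cells, and each cell carries 1 of 8 class names given by the study's authors. These are LSC, Basal, TAC1, TAC2, Wing, Squam, Conj and Immune, of which LSC is called limbal here, Squam superficial and Conj conjunctival. The classes were named by the authors on the same expression values, so a comparison of 2 classes describes them and is no independent test of the naming.

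The libraries summed to between 177449217 and 190393121 UMIs, with medians per cell from 8334 UMIs in library 3 to 16159.5 in library 1. Barcodes present in more than 1 library numbered 142. No doublet caller was run, and the labels do not state how doublets were treated. Single defining markers stood where the names place them, but the marker lists overlapped between classes. Gpha2, a limbal marker, was at 2700 ± 135 CPM (defined below) in limbal cells and 115 ± 42.2 in basal cells, the cornea's keratin gene Krt12 reached its highest level in the wing class, and the leucocyte gene Ptprc was at or under 0.06 CPM in every epithelial class. Krt15, listed as limbal, was higher in conjunctival cells (25402 CPM) than in limbal cells (8912), and Slurp1, listed as superficial, was at 7365 CPM in basal and 1563 in limbal cells. Reads of genes with near-identical copies, such as Hmgb2, Cks1b and Stmn1, could be shared with those copies, which was not examined.

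A cell enters mitosis when cyclin-dependent kinase 1, bound to B-type cyclins, reaches high activity. Chromosomes are then compacted by condensin and topoisomerase, and each centromere builds a kinetochore, the protein plate that binds spindle microtubules. A checkpoint at unattached kinetochores holds back the anaphase-promoting complex until all chromosomes are attached, after which the complex destroys cyclin B and securin, the sister chromatids separate and the cell is cut in 2 by cytokinesis. In the cornea, division takes place in the basal layer, whose cells renew the wing and superficial layers above it, and slowly cycling cells of the limbus at the corneal rim supply the basal layer.

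Many genes of this kind carry a CCAAT box together with a CHR element (cell cycle genes homology region) in their promoters. Through the CHR element their transcription is kept low early in the cell cycle. Promoter sequence, from RefSeq on build GRCm38.p6, was matched for 37 of the 44 genes, not for Ccna2, Aurkb, Spc24, Smc4, Kif20a, Tpx2 and Stmn1. Each promoter ran from 250 bases before to 50 bases after the start, and motifs were searched on both strands. The CHR letters TTTGAA were in 29 of 37 promoters (78.4%), against 20.2% of the promoters of 27025 genes, and its variant TTTAAA in 9 (24.3%), against 14.9%. CCAAT was in 29 (78.4%), against 41.1%. CCAAT and either CHR form stood together in 27 (73.0%), against 12.2% of all promoters. These letter matches are a description and not evidence of a bound site. The following 120 bases before the start, each 5′ to 3′ on the strand of its gene, are shown for 6 genes that the results below turn on. Capitals mark these motifs or their reverse complements, so that a CCAAT box on the other strand reads as ATTGG.
Ccnb2 (chr9:70421555-70421674, minus strand): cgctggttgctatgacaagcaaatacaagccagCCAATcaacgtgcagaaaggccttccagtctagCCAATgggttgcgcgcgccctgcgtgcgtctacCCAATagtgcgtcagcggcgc
Cdc20 (chr4:118437344-118437463, minus strand): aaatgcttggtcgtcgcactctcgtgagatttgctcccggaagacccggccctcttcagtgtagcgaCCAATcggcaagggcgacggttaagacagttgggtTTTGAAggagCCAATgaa
Plk1 (chr7:122159315-122159434, plus strand): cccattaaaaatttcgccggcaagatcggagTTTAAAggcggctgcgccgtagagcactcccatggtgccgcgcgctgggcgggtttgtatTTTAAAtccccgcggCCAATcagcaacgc
Cdk1 (chr10:69352913-69353032, minus strand): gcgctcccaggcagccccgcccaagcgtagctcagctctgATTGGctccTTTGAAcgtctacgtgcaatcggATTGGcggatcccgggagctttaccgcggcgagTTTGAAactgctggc
Top2a (chr11:99024190-99024309, minus strand): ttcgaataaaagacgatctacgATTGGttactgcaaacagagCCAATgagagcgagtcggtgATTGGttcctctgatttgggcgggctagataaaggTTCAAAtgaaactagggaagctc
Hmgb2 (chr8:57511723-57511842, plus strand): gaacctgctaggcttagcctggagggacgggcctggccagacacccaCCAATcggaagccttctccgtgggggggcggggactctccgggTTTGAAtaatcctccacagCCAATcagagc
In Ccnb2 the 3 CCAAT boxes began 87, 54 and 21 bases before the start, so that neighbours were 33 bases apart. In Cdk1 and Ccnb1 the nearest boxes of 1 orientation were 32 bases apart, and in Ube2c 31. Other genes differed, with neighbours 45 bases apart in Cdc20, 38 to 51 in Top2a and 45 to 125 in Hmgb2. Over the set such spacings ran from 23 bases in Cenpa to 128 in Cdk1. They were not compared with those of other promoters, and no common spacing is read from them. None of the 3 motifs was found in 3 of the 37 promoters.

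Level by class is given in CPM, the UMIs of a gene summed over the cells of a class in a library and scaled to the total of that sum, as the mean ± SD over the 3 libraries. CPM of 3′ UMIs count molecules and were not divided by transcript length. The sum over all 44 genes was 9753, 10674 and 11843 CPM in TAC2 in libraries 1, 2 and 3. In TAC1 it was 1292, 1507 and 1354, and in basal cells 453, 463 and 499. TAC2 thus stood above both other classes of the basal layer in every library, with no overlap. Limbal cells held 1944 ± 293 CPM, wing cells 391 ± 21.6, conjunctival cells 395 ± 33.4 and superficial cells 243 ± 22.5 (n = 3 each). The 114 cells of the immune class, at 1420 ± 580, were too few per library for any further comparison.

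TAC2 had the highest mean of the 7 epithelial classes for 43 of the 44 genes, and for 43 every TAC2 library lay above every library of the 6 other classes. The exception was Pttg1, securin, the inhibitor of the protease that separates sister chromatids, at 62.8 ± 2.08 CPM in TAC2 and 64.2 ± 0.96 in wing cells. Both counts of 43 were made for the 44 genes only and not over all genes, so they stand without a background share. The superficial class had the lowest mean for 26 genes. Limbal cells came second for 33 genes and TAC1 for 9. This second place changed with the deepest cells. Without the 5% of cells with the most UMIs in each library and class, limbal cells came second for 19 genes and TAC1 for 22, and the summed level was 1230 ± 307 CPM in limbal cells and 1369 ± 110 in TAC1.

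**Figure D1:**
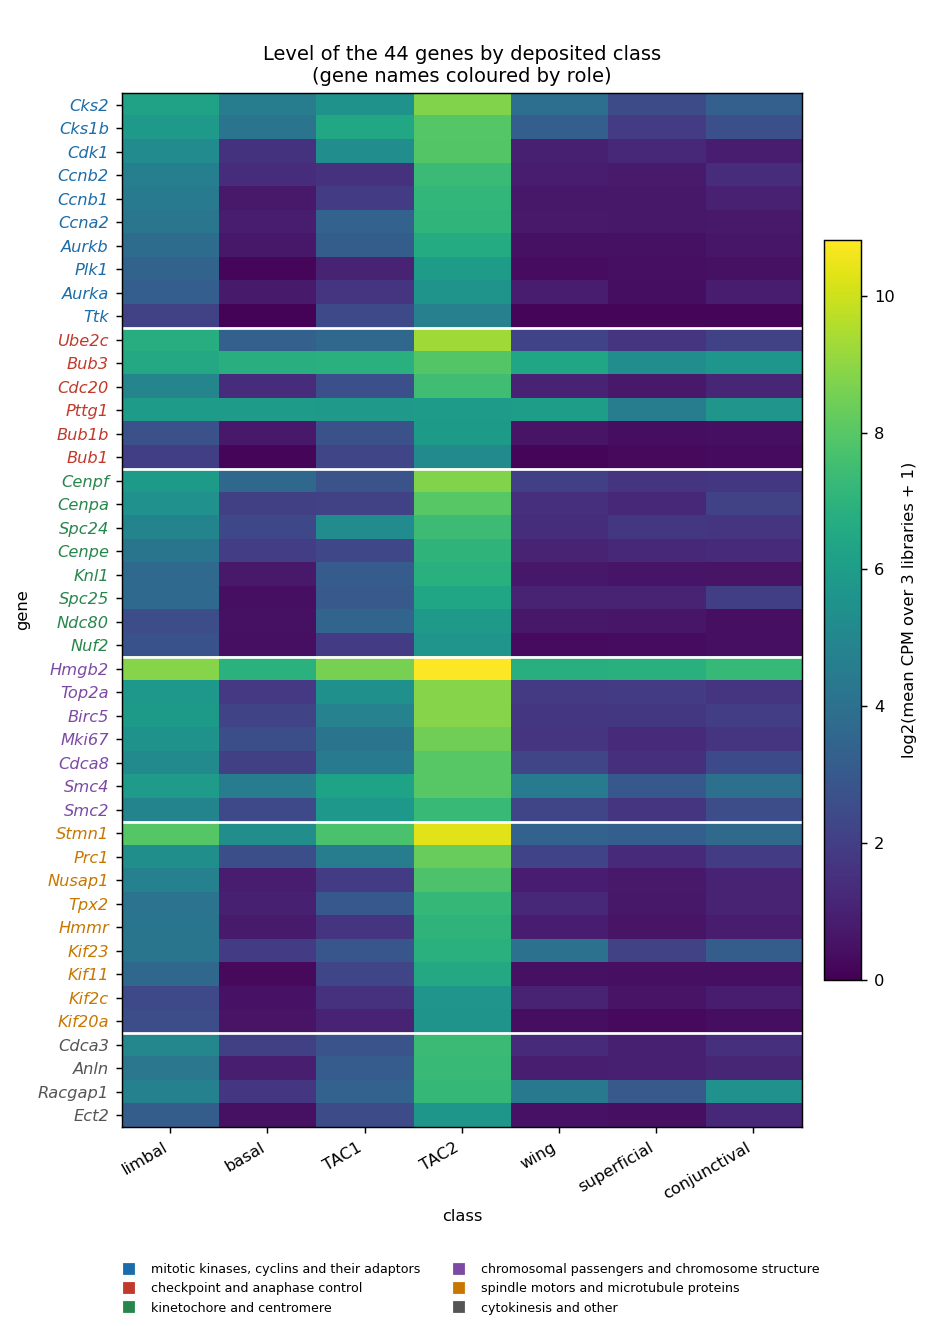
Heat map of the 44 genes (rows, grouped and coloured by role) in the 7 epithelial classes (columns). Colour gives log2 of the mean CPM over 3 libraries plus 1, and TAC2 is the brightest column for all but Pttg1, while Bub3, Pttg1 and Hmgb2 stay visible in every class and Racgap1 in the conjunctival class.

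In the step from TAC1 to TAC2, 43 of the 44 genes rose and 0 fell (edgeR quasi-likelihood test with the library as a block, Benjamini-Hochberg adjusted over all genes, threshold 0.05). Of all 11760 genes tested, 18.6% were called higher and 20.6% lower in this comparison. The median log2 fold change of the 44 genes was 3.75, beside -0.01 over all genes tested. In the step from basal to TAC1, 39 of the 44 rose and 2 fell, against 21.1% of 12297 genes called higher and 20.5% lower, and the median was 2.30, beside -0.02. The 2 steps were unequal from gene to gene, as the plot of fold changes shows, and the genes are taken by role below. The comparisons share the TAC1 sums. Both are log2 fold changes with the standard error of the fit.

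**Figure D2:**
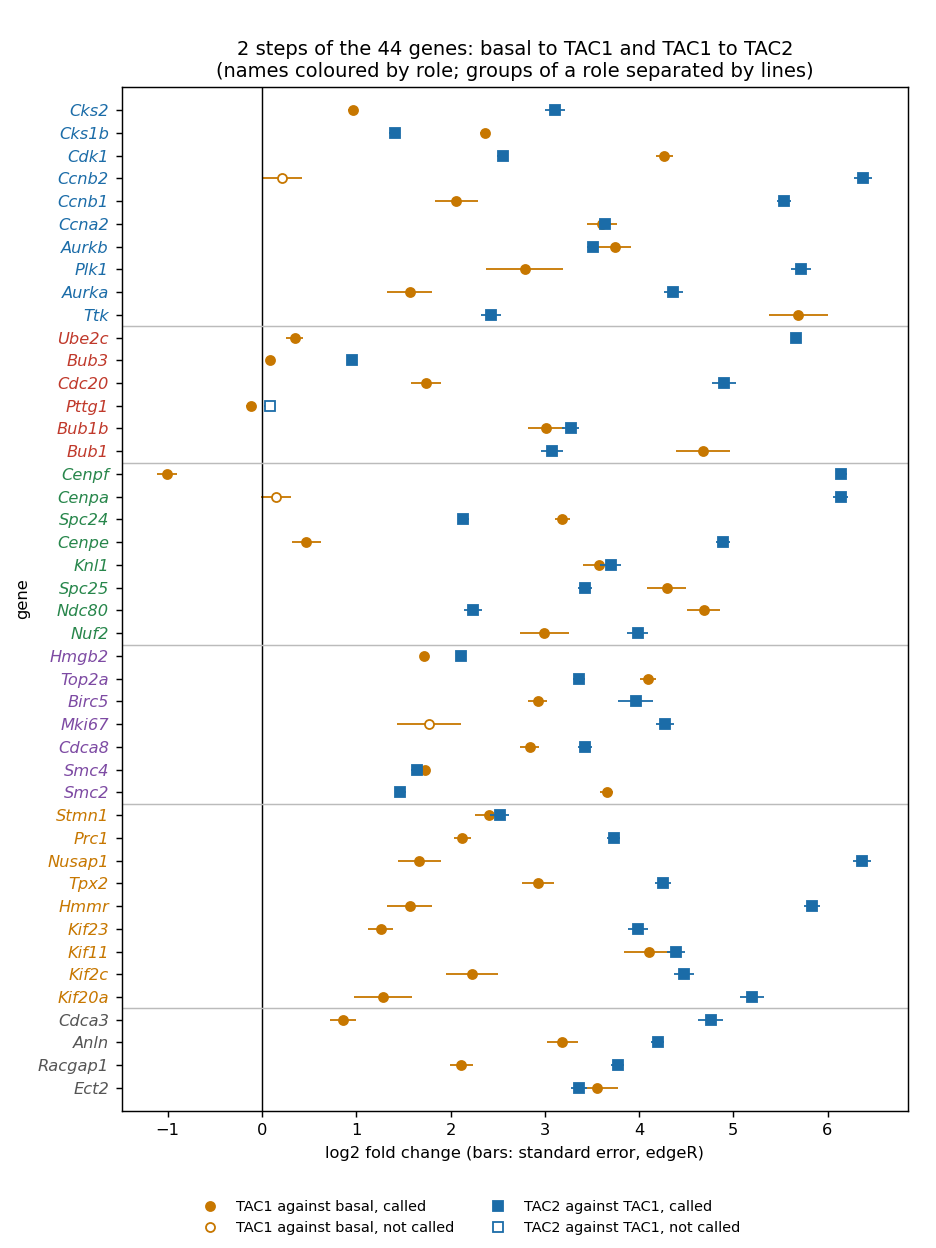
Log2 fold change of each gene for TAC1 against basal cells (circles) and TAC2 against TAC1 (squares), with the standard error as bars and open symbols for values that did not pass the test. Ccnb2, Cenpa and Cenpf lie near or under 0 in the first step and above 6 in the second, while Ttk, Ndc80 and Bub1 lie higher in the first step than in the second.

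All 10 mitotic kinases, cyclins and adaptors rose from TAC1 to TAC2, and 9 of 10 from basal to TAC1. Ccnb2, cyclin B2, was at 139, 170 and 183 CPM in TAC2 in libraries 1, 2 and 3, at 1.03, 2.32 and 2.31 in TAC1 and at 1.06, 2.08 and 1.65 in basal cells. Its TAC1 level was 1.15% of that in TAC2, and TAC1 and basal libraries overlapped. The log2 fold change was 6.38 ± 0.09 from TAC1 to TAC2 (adjusted p = 2.7e-17, higher in 3 of 3 libraries) and 0.21 ± 0.21 from basal to TAC1 (adjusted p = 0.44). Cdk1, the kinase that cyclin B activates, differed from its cyclins. It was at 242, 238 and 248 CPM in TAC2, at 41.2, 40.8 and 32.5 in TAC1 and at 2.07, 2.36 and 1.53 in basal cells, so the 3 classes did not overlap, and its first step of 4.27 ± 0.09 was larger than its second of 2.55 ± 0.06. Ccnb1, cyclin B1, rose by 5.54 ± 0.07 from TAC1 to TAC2, and Plk1, a kinase of spindle assembly and mitotic exit, by 5.72 ± 0.11. Ttk, the kinase that starts the spindle checkpoint, had the largest first step of the set at 5.69 ± 0.31 (adjusted p = 7.8e-31), from 6 UMIs in basal cells to 232 in TAC1.

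Cks2 and Cks1b, the small adaptors that dock substrates to cyclin-dependent kinases, had the highest mean level of this role. Cks2 was at 327, 349 and 622 CPM in TAC2 and at 40.4, 41.0 and 53.0 in TAC1, and library 3 was the highest of both classes. Its log2 fold change was 3.11 ± 0.11 from TAC1 to TAC2. Cks1b was at 224, 253 and 276 CPM in TAC2 and 83.6, 98.1 and 81.6 in TAC1, and it gained more from basal to TAC1 (2.36 ± 0.05) than from TAC1 to TAC2 (1.41 ± 0.06). The adaptors thus differed, with the larger step second for Cks2 (0.96 ± 0.05 in the first) and first for Cks1b.

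Of the 6 genes of checkpoint and anaphase control, 5 rose from TAC1 to TAC2. Ube2c, the ubiquitin-conjugating enzyme that works with the anaphase-promoting complex, was at 495, 671 and 688 CPM in TAC2 and at 8.58, 13.2 and 12.4 in TAC1. It rose by 5.67 ± 0.05 on the log2 scale, after 0.35 ± 0.09 from basal to TAC1. Bub3, a checkpoint protein, was abundant in the whole basal layer, with 229, 253 and 246 CPM in TAC2, 120, 121 and 110 in TAC1 and 112, 113 and 108 in basal cells. TAC2 did not overlap the other classes, whereas TAC1 and basal libraries did, with log2 fold changes of 0.95 ± 0.04 for the step to TAC2 and 0.09 ± 0.04 (adjusted p = 0.049) for the step to TAC1. Pttg1 was at 60.4, 63.7 and 64.2 CPM in TAC2, at 58.4, 52.0 and 56.2 in TAC1 and at 59.8, 60.8 and 62.3 in basal cells. It was the only gene of the 44 that was not called in TAC2 against TAC1 (log2 fold change 0.08 ± 0.06, adjusted p = 0.27), and it was called slightly lower in TAC1 than in basal cells (-0.12 ± 0.04, adjusted p = 0.019). With no scaling beyond library totals it passed, at 0.18 (adjusted p = 0.013). Bub1, which recruits the checkpoint proteins to kinetochores, had its larger step first, at 4.68 ± 0.29.

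All 8 kinetochore and centromere genes rose from TAC1 to TAC2, and 6 rose and 1 fell from basal to TAC1. Cenpf, a large protein of the outer kinetochore, was at 406, 436 and 463 CPM in TAC2. It was lower in TAC1 (4.99, 6.07 and 6.23) than in basal cells (12.1, 9.97 and 13.2), with no overlap between any of the 3 classes. Its steps were -1.01 ± 0.10 (adjusted p = 1.4e-14, lower in 3 of 3 libraries) and 6.15 ± 0.06. Cenpa, the histone H3 variant that marks the centromere, was at 217, 234 and 325 CPM in TAC2, at 2.89, 3.79 and 2.92 in TAC1 and at 2.37, 2.68 and 4.19 in basal cells. TAC1 and basal libraries overlapped for Cenpa (0.15 ± 0.16, adjusted p = 0.48, and -0.76 with each cell at 2000 UMIs), and the step to TAC2 was 6.14 ± 0.08. The Ndc80 complex, the microtubule-binding part of the kinetochore, moved otherwise. Ndc80 was at 49.4, 61.6 and 56.0 CPM in TAC2, 10.9, 13.4 and 7.74 in TAC1 and 0.339, 0.681 and 0.224 in basal cells, a first step of 4.68 ± 0.18. Spc25, of the same complex, had a first step of 4.29 ± 0.21, from 0.363 ± 0.24 to 7.06 ± 1.18 CPM.

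Among chromosomal passengers and chromosome structure genes all 7 rose from TAC1 to TAC2 and 6 of 7 from basal to TAC1. Hmgb2, a chromatin protein that bends DNA, was at 1603, 1595 and 2202 CPM in TAC2, at 365, 368 and 421 in TAC1 and at 113, 102.2 and 139 in basal cells. No library of these classes overlapped, and the steps were 1.72 ± 0.04 and 2.11 ± 0.04. Top2a, the topoisomerase that untangles sister chromatids, was at 445, 492 and 457 CPM in TAC2, at 36.0, 51.8 and 39.1 in TAC1 and at 2.07, 2.84 and 2.54 in basal cells. Its first step, 4.10 ± 0.08, was larger than its second, 3.36 ± 0.06. The condensin subunits Smc2 and Smc4 changed little from TAC1 to TAC2 beside the rest of the set, by 1.47 ± 0.06 and 1.64 ± 0.06, and Smc2 had a first step of 3.66 ± 0.07. Mki67, the antigen Ki-67 that coats mitotic chromosomes, was at 15.6, 22.4 and 12.8 CPM in TAC1 and at 4.86, 4.28 and 6.14 in basal cells. These libraries did not overlap, yet the step of 1.77 ± 0.34 was not called (adjusted p = 0.057).

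All 9 genes of spindle motors and microtubule proteins rose in both steps. Stmn1, stathmin, which takes up free tubulin, was at 1216, 1303 and 1309 CPM in TAC2, at 166, 246 and 218 in TAC1 and at 32.5, 37.9 and 49.2 in basal cells, with steps of 2.41 ± 0.15 and 2.52 ± 0.10. Prc1, which bundles the microtubules of the spindle midzone, was at 287, 326 and 336 CPM in TAC2 and at 19.6, 26.7 and 19.5 in TAC1, with steps of 2.13 ± 0.09 and 3.73 ± 0.07. Neither gene's classes overlapped. Nusap1, a microtubule protein of the spindle around chromosomes, rose by 6.36 ± 0.10 from TAC1 to TAC2, and Hmmr, which helps to focus spindle poles, by 5.84 ± 0.08. Kif11, the motor that pushes the spindle poles apart, had a large first step of 4.10 ± 0.26. The 4 genes of cytokinesis and other roles also rose in both steps. Racgap1, a part of the centralspindlin complex, was at 133, 137 and 166 CPM in TAC2, at 8.63, 10.9 and 9.65 in TAC1 and at 1.88, 2.28 and 2.66 in basal cells (steps of 2.12 ± 0.13 and 3.77 ± 0.07). Anln, anillin, a scaffold of the contractile ring, was at 140, 156 and 172 CPM in TAC2 and at 6.34, 9.15 and 8.14 in TAC1 (steps of 3.19 ± 0.16 and 4.20 ± 0.07), again without overlap.

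A summed level can rise because more cells carry a gene or because each holds more of its RNA, so the genes were also counted cell by cell. Since median depth ran from 8417 UMIs in basal cells to 15018.5 in superficial cells, 2000 UMIs were drawn at random from each cell, and cells with fewer were left out (233 basal, 187 TAC2, 39 wing, 30 TAC1, 28 superficial, 24 conjunctival and 10 limbal). At this depth the median TAC2 cell held UMIs of 11 different genes of the 44, with quartiles of 6 and 16 and a maximum of 29. The median was 2 in TAC1, 1 in limbal, basal, wing and conjunctival cells and 0 in superficial cells. UMIs of at least 10 genes were in 57.6% of TAC2 cells (1728 of 2999), in 3.16% of limbal cells (23), in 0.487% of TAC1 cells (20) and in 0 of 8596 basal cells, which allows a share of up to 0.0349%.

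**Figure D3:**
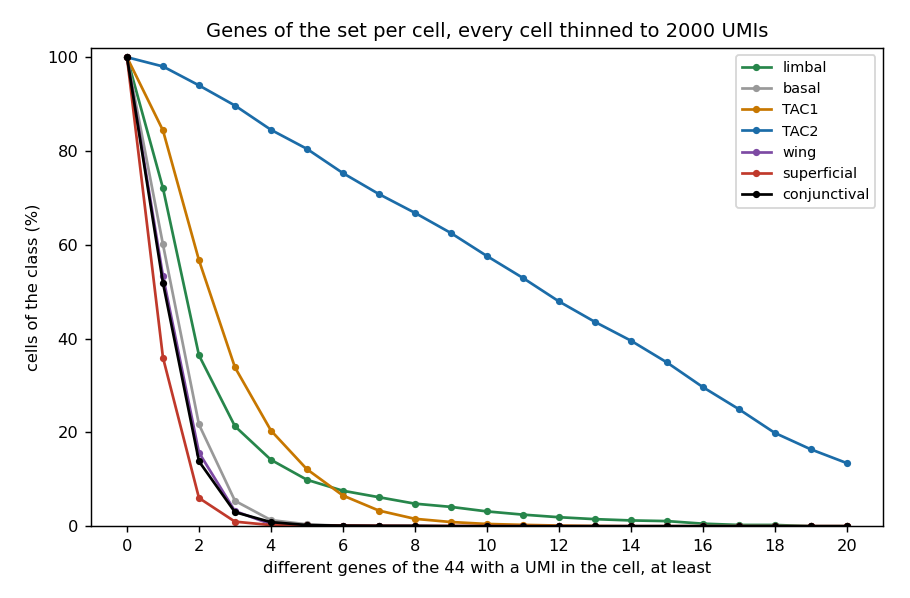
Share of the cells of each epithelial class (vertical axis, percent) with UMIs of at least a given number of the 44 genes (horizontal axis), all cells thinned to 2000 UMIs. The TAC2 curve falls slowly and reaches 57.6% at 10 genes, TAC1 and limbal cells come next at 3 genes, and the limbal curve runs above that of TAC1 at 10 genes.

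A cell was counted as carrying the set when it held UMIs of at least 3 of the 44 genes. This held for 89.2 ± 2.16% of TAC2 cells, 33.5 ± 3.87% of TAC1, 20.1 ± 5.27% of limbal, 5.32 ± 0.514% of basal, 3.11 ± 0.520% of wing, 2.82 ± 1.54% of conjunctival and 0.952 ± 0.189% of superficial cells. TAC2 was above TAC1, and TAC1 and limbal cells above basal cells, in 3 of 3 libraries, with an exact two-sided sign flip p = 0.25, the smallest that 3 libraries can give. Much of the basal share came from 4 widely detected genes, Hmgb2, Bub3, Pttg1 and Stmn1, each with a UMI in over 5% of basal cells at this depth (20.8%, 19.4%, 11.5% and 7.03%). The genes were picked by this limit in the same basal cells, so a lower basal share without them was built into the count. With the other 40 genes the shares were 81.7 ± 2.37% in TAC2, 14.2 ± 2.94% in TAC1, 10.3 ± 2.49% in the limbal and 0.672 ± 0.288% in the basal class. Wing (0.398 ± 0.130%), conjunctival (0.479 ± 0.476%) and superficial cells (0.220 ± 0.146%) then all lay near the basal share. Whether free RNA in droplets gave these low shares was not tested, and no direction is read among them. Over all classes 5272 of 37502 cells carried the set, of which 51.0% were TAC2, 26.4% TAC1, 8.84% basal, 8.21% wing and 2.94% limbal. The share of all cells was 13.3% in library 1, 16.7% in library 2 and 12.8% in library 3.

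To place the genes within the cycle, cells were also scored for a list of 30 genes of DNA replication, with UMIs of at least 3 of them counted as carrying it. In TAC1, 36.2 ± 4.27% of cells carried the replication list alone, 28.1 ± 4.45% both lists and 5.36 ± 0.629% the mitosis set alone. In TAC2, 54.2 ± 11.3% carried the mitosis set alone, 35.0 ± 9.90% both and 0.261 ± 0.334% the replication list alone. Cells with replication genes alone were thus nearly all outside TAC2. The TAC1 cells that carried the mitosis set mostly carried the replication list as well. That list was carried by 64.3 ± 4.45% of all TAC1 cells, with or without the mitosis set. Without the 4 widely detected genes, the TAC1 share with the mitosis set fell from 33.5 ± 3.87% to 14.2 ± 2.94%. The split by replication genes was not repeated without these genes. In limbal cells 14.7 ± 4.49% carried the mitosis set alone, 5.40 ± 2.89% both and 5.66 ± 2.44% the replication list alone, and in basal cells 92.6 ± 1.02% carried neither.

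**Figure D4:**
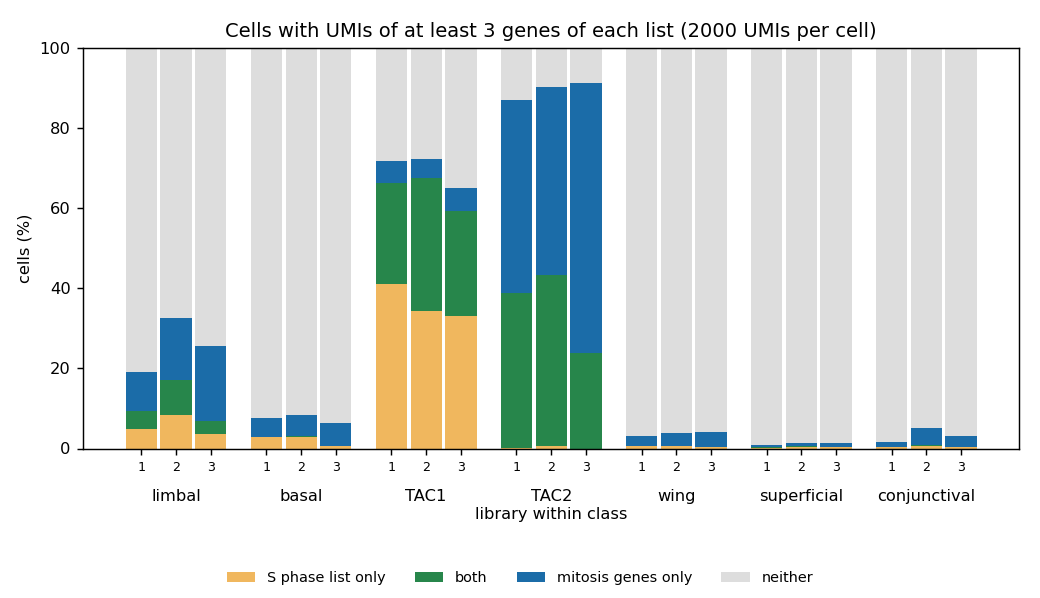
Stacked shares of cells (percent) that carry the replication list alone, both lists, the 44 mitosis genes alone or neither, for each library within each epithelial class, at 2000 UMIs per cell. TAC1 is split mainly between replication alone, both and neither, and TAC2 between both and mitosis genes alone, with the smallest share of both in library 3.

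The 44 genes did not accompany replication genes alike. Among TAC2 cells, 1001 carried the replication list and 1998 did not, at median depths before thinning of 14292 and 9281.5 UMIs, and all were compared at 2000 UMIs. In 26 genes the share of cells with a UMI was higher in the cells with replication genes in all 3 libraries, and in 8 it was lower in all 3. These counts were made for the 44 genes only and not over all genes, so they stand without a background share. Some genes without any lean would also fall on 1 side in all 3 libraries. Spc25 was in 21.9%, 19.4% and 21.5% of the cells with replication genes in libraries 1, 2 and 3, and in 5.65%, 8.99% and 7.89% of those without. Top2a was in 61.0%, 64.1% and 69.2% against 26.8%, 29.4% and 29.8%, Smc2 in 37.2 ± 3.59% against 16.4 ± 2.93% and Cdk1 in 43.1 ± 4.92% against 21.6 ± 1.17%. The lean differed within roles. All 7 genes of chromosomal passengers and chromosome structure were among the 26, as were the kinetochore genes Knl1, Ndc80, Nuf2, Spc24 and Spc25. The 8 genes with the opposite lean were Pttg1, Cenpa, Cenpf, Ccnb2, Cdc20, Ccnb1, Cenpe and Kif20a. Cenpa was in 24.5%, 20.6% and 26.2% of cells with replication genes and in 33.4%, 40.1% and 44.1% of those without. Cenpf was in 32.8 ± 3.30% against 50.7 ± 2.55%, and Cdc20, the activator of the anaphase-promoting complex, in 18.3 ± 6.86% against 25.98 ± 4.62%. Pttg1, whose summed level differed little between the classes, was in 7.29 ± 2.36% against 13.9 ± 1.21%. Plk1 and Ube2c did not lean either way beyond their spread, with 10.3 ± 5.31% against 10.5 ± 1.99% and 44.5 ± 8.51% against 44.3 ± 5.32%.

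**Figure D5:**
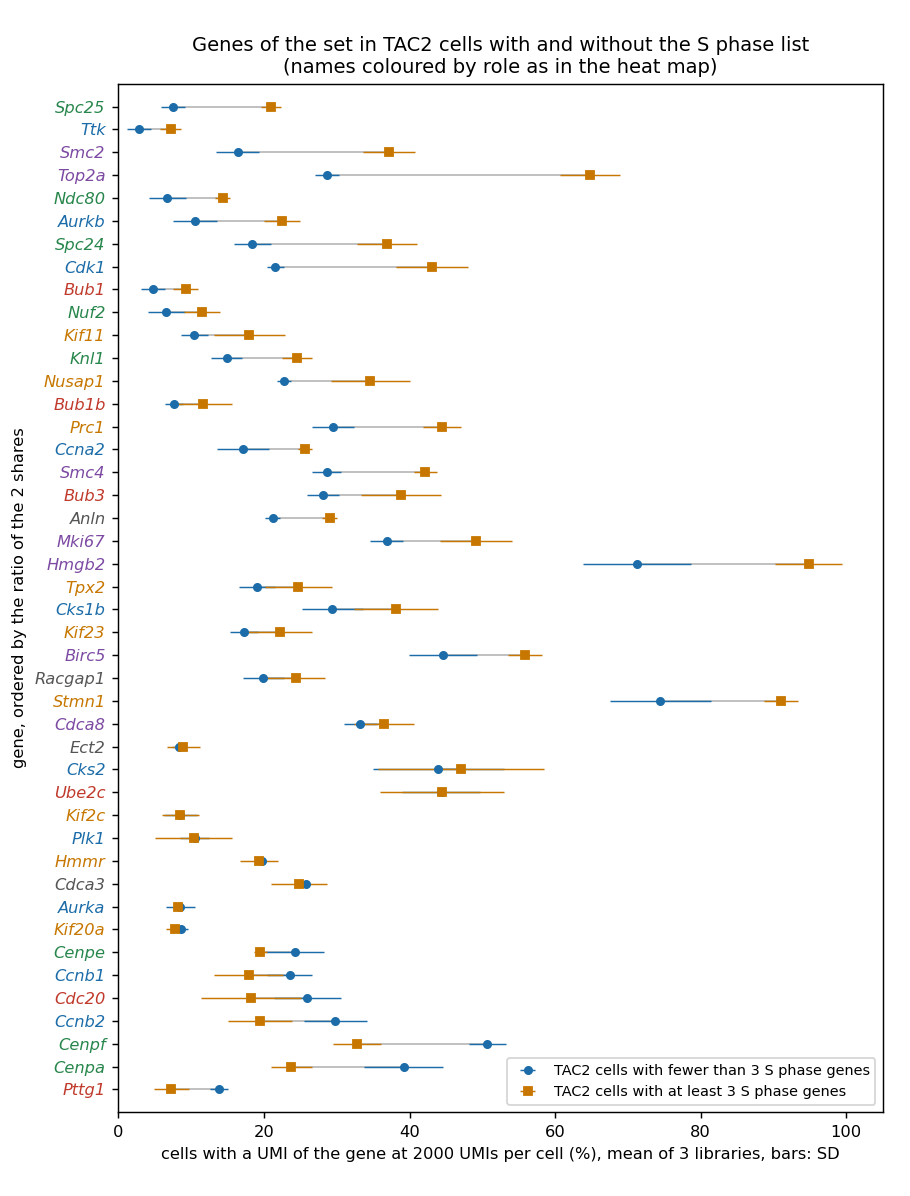
Share of TAC2 cells with a UMI of each gene (percent, mean of 3 libraries, bars are SD) in cells with at least 3 replication genes (squares) and in the other TAC2 cells (circles), ordered by the ratio of the shares. Spc25, Ttk, Smc2 and Top2a are at the top and Pttg1, Cenpa, Cenpf and Ccnb2 at the bottom.

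In TAC1 more genes leaned towards cells with replication genes. In 35 genes the share was higher in the 2659 TAC1 cells with replication genes than in the 1447 without in all 3 libraries, as for Top2a with 10.7 ± 1.97% against 1.59 ± 0.152% and Birc5, survivin of the chromosomal passenger complex, with 6.25 ± 0.584% against 0.693 ± 0.546%. Cenpa, Ccnb2 and Pttg1 were lower in all 3 libraries, with Pttg1 in 8.98 ± 0.427% against 12.97 ± 2.46%. For Cenpa (0.390% against 0.625%) and Ccnb2 (0.170% against 0.271%) both shares were at the level of single cells per library. Cenpf, Cdc20, Ccnb1 and Cenpe, which were lower in all 3 libraries in TAC2, were higher in all 3 in TAC1, with Cdc20 in 1.34 ± 0.104% against 0.573 ± 0.354%, and the difference between TAC1 and TAC2 was not tested.

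Pairs of genes within TAC2 cells were also unequal. Kif11 had a UMI in 23.2 ± 4.75% of the 1231 TAC2 cells with Top2a and in 5.72 ± 1.07% of those without, and Aurkb, the kinase of the passenger complex, in 25.9 ± 0.592% against 6.72 ± 1.70%. Ccnb2 was in 27.9 ± 5.45% and 24.98 ± 5.56%, within the spread between libraries. Plk1 was in 17.2 ± 5.12% against 5.28 ± 1.28%. With Cdc20 in place of Top2a, Ccnb1 was in 40.3 ± 2.50% of the 726 cells with Cdc20 and in 15.8 ± 2.81% of those without, Cenpa in 55.6 ± 2.86% against 27.6 ± 4.95% and Plk1 in 18.8 ± 3.01% against 7.42 ± 1.19%, while Ttk was in 4.14 ± 0.588% against 4.43 ± 0.706%. Kif11 was in 22.3 ± 2.52% against 10.1 ± 1.55%. These shares, like those by replication genes, describe cells sorted on the same UMIs and were not tested.

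Limbal cells held more of the set than the basal class. Of the 44 genes 42 were higher and 1 lower, against 21.4% of 12116 genes called higher and 18.8% lower, with a median of 3.41. The largest were Plk1 (5.83 ± 0.42), Kif11 (5.46 ± 0.41) and Ttk (5.12 ± 0.62). Bub3 was lower (-0.40 ± 0.09) and Pttg1 was not called (-0.14 ± 0.10, adjusted p = 0.25). Set against the whole basal layer, that is basal, TAC1 and TAC2 cells summed, 0 genes were higher and 42 lower (background 19.1% higher and 19.5% lower of 12898 genes), with a median of -0.97. Ndc80 (-1.75 ± 0.19), Bub1 (-1.66 ± 0.24) and Kif2c (-1.62 ± 0.23), a motor that takes microtubule ends apart, were the lowest. Kif11 (-1.20 ± 0.52, adjusted p = 0.21) and Pttg1 (-0.06 ± 0.09, adjusted p = 0.63) were not called. With the deposited classes the limbal class thus lay between the basal class and the layer as a whole. The place under the layer changed with reassigned classes (below), where 1 gene was higher and 9 lower, with a median of -0.18. Of all genes 15.5% were then called higher and 14.4% lower.

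Few limbal cells held much of this signal. The 23 limbal cells with at least 10 genes of the set were 3.12% of the class and held 41.4% of the UMIs of the 44 genes in it and 8.59% of all its UMIs. They had a median of 28638 UMIs, against 8186 in the 203 limbal cells with none of the genes, and 13 of the 23 were among the deepest 5% of their library and class. Gpha2 had a UMI in 17.4% of them at 2000 UMIs and in 84.2% of the 203. Their summed UMIs of 5 limbal markers averaged 13.7 against 36.2, those of 5 basal markers 30.3 against 20.3, those of 4 wing markers 29.1 against 9.01 and those of 5 superficial markers 14.7 against 1.69. The wing and superficial lists hold genes that the basal layer also expresses, with sums of 40.7 and 15.3 in basal cells without genes of the set and 29.0 and 7.90 in TAC2 cells with at least 10. Conjunctival markers summed to 8.87 in the 23 cells and 3.38 in the 203, but to 0.10 and 0.27 in those basal and TAC2 cells. Gpha2 had a UMI in 17.1% of those basal cells and 14.8% of those TAC2 cells. In the 132 limbal cells with 3 to 9 genes of the set these values were closer to the 203, with Gpha2 in 79.5% and 32.7 limbal marker UMIs. The part of depth and of these markers in the limbal result was not tested. Without the deepest 5% of cells 37 of 40 genes tested were still higher in limbal than in basal cells (median 2.76, with 18.8% of all genes called higher), and against the whole layer the median fell from -0.97 to -1.91. With classes reassigned from a random 50% of UMIs, leaving out the 44 genes and the pathway lists, and the genes measured on the other 50%, 91 of 3186 TAC2 cells moved to the limbal class, and against the layer 1 gene was higher and 9 lower (median -0.18), where 15.5% of all genes were called higher and 14.4% lower.

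Outside the basal layer most of the set was low, but single genes stood apart. In wing against basal cells 10 of the 42 genes that passed the filter on low counts were higher and 16 lower, with a background of 38.8% and 38.7% of 13172 genes. The share of higher genes was under its background and that of lower genes near it. Ttk and Bub1 did not pass the filter here. Racgap1 was at 19.7, 21.7 and 17.998 CPM in wing cells against 1.88, 2.28 and 2.66 in basal cells, and Kif23, its partner in the centralspindlin complex, at 16.8, 15.4 and 14.8 against 2.94, 2.88 and 2.43. Neither overlapped, and the log2 fold changes were 3.29 ± 0.11 (adjusted p = 7.7e-11) and 2.69 ± 0.08 (adjusted p = 4.2e-11). Spc25 (1.81 ± 0.30) and Kif2c (1.59 ± 0.23) were the next highest, at 1.11 ± 0.157 and 1.13 ± 0.111 CPM. Stmn1 fell by 1.87 on the log2 scale and Cenpf by 1.72.

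Conjunctival cells, marked by the keratins Krt19 (3167 ± 100 CPM) and Krt4 (3237 ± 865 CPM), carried the highest level of Racgap1 outside TAC2, at 47.3, 50.1 and 31.7 CPM. Against basal cells its log2 fold change was 4.54 ± 0.19 (adjusted p = 7.5e-08), followed by Spc25 with 3.36 ± 0.32, Ect2, the activator of the contractile ring's GTPase and a partner of centralspindlin, with 2.01 ± 0.36, and Kif23 with 1.88 ± 0.16. Cenpf fell by 2.01. Of the 37 genes that passed the filter on low counts 9 were higher and 9 lower, under the background of 37.3% and 40% of 12244 genes. With library 1, 2 or 3 left out in turn, the counts lower were 5 of 39, 13 of 36 and 5 of 38 tested. Over all genes the counts lower were then 4301 of 12347, 4693 of 12296 and 4586 of 12350. Racgap1 had a UMI in 8.53 ± 1.67% of conjunctival and 3.29 ± 0.497% of wing cells at 2000 UMIs, against 0.432 ± 0.138% of basal and 1.42 ± 0.564% of superficial cells. Without thinning the shares were 43.1%, 26.5%, 2.03% and 10.3%.

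Few of these cells carried other genes of the set. Of the 203 conjunctival cells with Racgap1, 2.46% held at least 2 of 39 other genes (the 40 without the widely detected ones, less Racgap1 itself), against 1.73% of the 2195 without it. In wing cells the values were 4.11% of 438 against 2.01% of 12970, and in TAC2 98.9% of 656 against 84.8% of 2343. For Kif23 in wing cells they were 1.09% of 368 against 2.12% of 13040. Of the same-strand neighbours of Kif23, Rplp1, at 1363 bases, was lower in wing (3047 ± 437 CPM) than in basal cells (5546 ± 924), and Paqr5, at 6707 bases, was higher (296 ± 7.41 against 142 ± 3.36). Their part in the Kif23 value was not tested. No other protein-coding gene of the annotation lay on the strand of Racgap1 within 10000 bases.

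In superficial against wing cells the calls depended on the scaling between classes. With TMM factors 18 of 42 genes tested were higher and 6 lower (background 37.9% and 41.8% of 12818 genes), and with no scaling beyond library totals 2 were higher and 18 lower, where 15.3% of all genes were called higher and 75.4% lower. With library 1, 2 or 3 left out in turn, the counts higher were 13 of 42, 11 of 43 and 21 of 43 tested. Over all genes the counts higher were then 4532 of 12910, 4707 of 13135 and 4710 of 12878. The TMM factors shift every gene by 0.98 on the log2 scale in this pair, by 0.33 in conjunctival, 0.18 in wing and -0.12 in limbal against basal cells. In conjunctival and wing cells the unscaled counts were 5 higher and 11 lower (27.5% and 53.1% of all genes) and 7 higher and 17 lower (30.4% and 48.8% of all genes). Kif23 was lower (-1.28 ± 0.10) and Spc24, of the Ndc80 complex, higher (1.498 ± 0.161) in superficial than in wing cells, and both kept that direction and passed the test unscaled. No overall direction between these layers is read from the set.

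Over the 21 sums of 7 classes and 3 libraries, the log2(CPM + 1) of each gene was correlated with the mean of the other 43, as a description. Tpx2, which nucleates microtubules around chromosomes, followed the others most closely (r = 0.997), and Pttg1 (0.42), Racgap1 (0.68), Bub3 (0.82) and Kif23 (0.85) least. Among 7374 genes in none of the lists used here and with a mean log2 value of at least 3, the 10 that followed the mean of the set most closely were H2afx (r = 0.984), Cdca4, G2e3, Lockd, Terf1, Gpsm2, H2afv, Ccdc34, Hist1h2ap and Lmnb2 (0.938). H2afx, a histone variant phosphorylated at DNA breaks, was at 306 ± 31.3 CPM in TAC2 and 35.2 ± 8.79 in TAC1. Hist1h2ap, a histone gene whose reads can be shared with near-identical copies, was at 1244 ± 139 CPM in TAC2 and 55.4 ± 12.7 in TAC1. All sums of a library share its mice and preparation, so the 21 points are not independent.

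Other genes of the same machinery, on 7 lists with 164 genes, moved with the set to different degrees. From TAC1 to TAC2, 31 of 34 other kinetochore and centromere genes rose and 1 fell, 24 of 25 other spindle and cytokinesis genes rose, 14 of 18 condensin and cohesin genes and 13 of 17 genes of the anaphase-promoting complex, with medians of 1.05, 2.78, 0.60 and 0.36. Of all 11760 genes tested in this comparison 18.6% were called higher and 20.6% lower, the background for each list here. Fam83d, which brings a kinase to the spindle, rose by 5.99 ± 0.17 and Espl1, separase, by 4.29 ± 0.18, while Smc3, of the cohesin ring, was at 0.07 ± 0.05 (adjusted p = 0.27). Of 26 genes of transcription and entry control 14 rose and 3 fell, with Cdc25c, the phosphatase that activates Cdk1, at 6.15 ± 0.18. Of 14 inhibitors of the cycle 10 rose and 1 fell, among them Cdkn2d at 2.91 ± 0.07 and Cdkn1a at 1.10 ± 0.07. From basal to TAC1, 30 of 30 replication genes were higher (median 3.73), where 21.1% of all genes were. From TAC1 to TAC2 the replication genes went the other way, with 4 higher and 16 lower (median -0.68). Ung, a DNA repair glycosylase, fell by 2.97 and Gins2, of the replicative helicase, by 1.65, whereas Pcna, the sliding clamp, was at -0.45 ± 0.25 (adjusted p = 0.31).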

How the data were processed

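The UMI counts per gene and cell were deposited by the authors as a single table with a class name per cell. Reads were processed with Cell Ranger 5.0.0 and Seurat 4, with genome mm10, per the submitters' processing notes. Library 1 was matched to its cells by elimination and libraries 2 and 3 by number, and 0 columns were left without a library.

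Counts were summed per library and class. For 7 comparisons they were fitted over all genes with edgeR 4.0.16 in R 4.3.3 (quasi-likelihood test, TMM factors, filterByExpr, library as a block), with Benjamini-Hochberg adjustment and a threshold of 0.05. Both classes of a comparison come from the same 3 libraries, and deviations of classes of 1 library from their class means correlated in each pair (r from 0.358 to 0.849). The fit was tested on simulated counts. Libraries come from separate mice but differ in age and sex, so p-values measure the spread among these 3 libraries. Counts of 2 libraries differed beyond sampling noise in each pair (chi-square per degree of freedom 80.4 to 222). Intervals and floors cover counting error only. Alternatives were DESeq2 1.42.0, other scaling and filters, thinned or fewer cells, reassigned classes and libraries left out. The scaling and 50% alternatives, and the count without 4 widely detected genes, were added after seeing the data.

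The 44 genes, their roles and the pathway lists were chosen with earlier results of these data known. Values per library are given for the 2 most abundant genes of each role and those with the largest or smallest change in a comparison, along with further genes of the set chosen after their values were seen. Of each pathway list, up to 4 genes could be named: 2 for their level and 2 for the size of their change from TAC1 to TAC2. Of 47 cell type markers 38 were in the table. Protein features, listed as an analysis, were not computed.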

Additional observations from a re-analysis of the deposited data

How the results depend on the processing

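Of 236 counts and shares recomputed under alternatives, 214 kept within 1.5 times or within the spread and 22 moved. From basal to TAC1, 1 gene rather than 2 was lower with DESeq2, at 2000 UMIs per cell, in 1 fit over all classes, and with the deposited classes on 50% of UMIs, and 1 to 2 with a library left out. In these settings 778 to 1698 of all genes were lower, and 1569 to 2023 with a library left out. Limbal against basal cells gave 25 higher at 2000 UMIs, where 27 genes were tested and 996 of all 9581 genes were higher. Limbal cells against the whole layer gave 1 higher and 9 lower with reassigned classes (1915 and 1770 of all 12331 genes). In wing cells 3 of 22 genes tested were higher at 2000 UMIs, where 3531 of all 10789 genes were. With reassigned classes 16 of 42 were higher (4572 of all 12354 genes). In superficial cells 2 of 18 genes tested were higher at 2000 UMIs, where 3478 of all 10101 genes were. With reassigned classes 3 of 41 were higher and 21 lower (4436 and 4824 of all 11748 genes). With no scaling 2 of 42 were higher and 18 lower (1957 and 9663 of all 12818 genes). With a library left out 11 to 21 were higher, beside 4532 to 4710 of all genes. In conjunctival cells 3 of 18 genes tested were higher at 2000 UMIs, where 3078 of all 9789 genes were. With no scaling 5 of 37 were higher (3367 of all 12244 genes). With a library left out 5 to 13 were lower, beside 4301 to 4693 of all genes. Fewer genes pass the filter at 2000 UMIs, and otherwise the cause was not tested.

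Without the replicate block, that is without pairing classes by library, the counts higher and lower were 43 and 0 (TAC2), 36 and 1 (TAC1), 42 and 1 (limbal against basal), 0 and 32 (limbal against the layer), 8 and 12 (wing), 14 and 6 (superficial) and 9 and 6 (conjunctival). Over all genes tested they were, in this order, 772 and 602 of 11760, 1108 and 190 of 12297, 2077 and 1499 of 12116, and 1934 and 1541 of 12898. For wing, superficial and conjunctival cells they were 4334 and 4196 of 13172, 4402 and 4836 of 12818, and 4245 and 4478 of 12244.

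Over all genes of the set and all alternatives, the direction turned in 56 of 518 values for superficial, 39 of 521 for wing and 38 of 448 for conjunctival cells. It turned in 12 of 572 for limbal cells against the layer, in 5 of 560 for TAC1, and in 0 for TAC2 and for limbal against basal cells. Among named genes the direction turned for Cenpa from basal to TAC1, at -0.76 with 2000 UMIs, -0.069 without the deepest 5% of cells, -0.18 with reassigned classes and -0.062 to 0.42 with a library left out. It also turned for Ccnb2 in the same step (-0.41 with reassigned classes) and for Pttg1 in limbal cells against the layer (0.0043 with no scaling). None of these 3 was called.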
